A study of Mus musculus with 2 samples.

Results

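The pentose phosphate pathway enzymes of mouse eye organoids were described here through 7 genes, chosen by name as the rows G6pdx, Pgls, Pgd, Rpia, Rpe, Tkt and Taldo1 of the count tables, out of 27998 genes listed. All 7 were found, each on 1 row. Eye organoids are 3-dimensional cultures of embryonic stem cells that form optic vesicles, and those used here came from a single Rax-GFP ESC line with the genotype Rax-GFP knockin Het, shared by both stages. One 10x Genomics single cell 3′ v2 library was made on culture day 4 and one on culture day 6, each pooling 3 experiments that cells could not be traced back to, so each day was 1 sample without replicates. After filtering, 8147 cells of day 4 and 6641 cells of day 6 remained, with 98643495 and 87800738 unique molecular identifiers (UMIs, each the count of 1 captured mRNA molecule) and medians of 11216 and 12514 UMIs per cell. The 2 libraries shared 91 cell barcodes. The labelled cell type, retina progenitors, did not describe all cells, since groups of cells with pluripotency, neural crest or endoderm markers were also found. Levels are given as UMIs per 1000000 of a group's summed UMIs (CPM), with exact Poisson 95% intervals, and ratios with exact conditional binomial 95% intervals. These intervals cover counting error only, and no test between days or groups was possible.

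The pathway branches from glycolysis at glucose 6-phosphate. Its oxidative arm makes NADPH, which serves reductive synthesis and the glutathione and thioredoxin systems, and its reversible non-oxidative arm links ribose 5-phosphate, the sugar of nucleotides, back to glycolytic intermediates. Dividing cells and cells that live on aerobic glycolysis, as the retina does, are known for drawing on both arms.

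In the oxidative arm, G6pdx (ENSMUSG00000031400, chrX:74409483-74429194, minus strand) encodes glucose 6-phosphate dehydrogenase, the committed step. Pgls (ENSMUSG00000031807, chr8:71592176-71601092, plus strand) encodes 6-phosphogluconolactonase, and Pgd (ENSMUSG00000028961, chr4:149149991-149166771, minus strand) encodes 6-phosphogluconate dehydrogenase, the second NADPH-making step. In the non-oxidative arm, Rpia (ENSMUSG00000053604, chr6:70765720-70792232, minus strand) encodes ribose 5-phosphate isomerase and Rpe (ENSMUSG00000026005, chr1:66700831-66719805, plus strand) the ribulose phosphate 3-epimerase. Tkt (ENSMUSG00000021957, chr14:30548359-30574720, plus strand) encodes transketolase and Taldo1 (ENSMUSG00000025503, chr7:141392199-141402968, plus strand) transaldolase, which exchange carbon units between sugar phosphates. Coordinates are those of GENCODE M21 on GRCm38. The 3′ ends of G6pdx and Rpe overlap Ikbkg and Kansl1l on the opposite strand, and that of Pgls overlaps Fam129c on the same strand, so reads in the Pgls overlap cannot be assigned with certainty. G6pd2 matched the last exonic bases of G6pdx at 90.5% identity and held 0 UMIs on day 4 and 1 UMI on day 6. Gm17823 matched Taldo1 at 92.9% identity and was not listed in the tables.

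All 7 enzymes were detected in both libraries, at levels that spanned a wide range. A 3′ library counts 1 end per molecule, so CPM was compared between genes without division by length. Tkt was the highest, at 294 CPM (290 to 297) and 371 CPM (day 4 and day 6, in this order from here). Pgls followed at 212 and 274 CPM, and Taldo1 at 176 and 208 CPM. Pgd had 87.2 and 82.6 CPM. G6pdx, which starts the pathway, was far lower at 24.8 and 19.04 CPM, and Rpe had 14.6 and 15.6 CPM. Rpia was the lowest, at 4.53 CPM (4.12 to 4.97, from 447 UMIs) and 6.47 CPM (from 568 UMIs). The order of the 7 genes was the same in both libraries. The paralogs had few counts. H6pd, the glucose 6-phosphate dehydrogenase of the endoplasmic reticulum, had 112 UMIs (1.14 CPM) on day 4, Tktl1, a transketolase-like gene, had 10 UMIs on day 4 and 6 on day 6, and Tktl2 had 1 and 0 UMIs.

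Between the days, Rpia, Pgls, Tkt and Taldo1 were higher on day 6 and both dehydrogenases, G6pdx and Pgd, lower, all by less than 1.5-fold. Pgls was 1.29-fold (1.27 to 1.32) of its day 4 level, Tkt 1.26-fold (1.24 to 1.28) and Taldo1 1.18-fold (1.15 to 1.20). Rpia was 1.43-fold (1.26 to 1.62). G6pdx was at 0.769 of its day 4 level (0.722 to 0.819) and Pgd at 0.948 (0.919 to 0.978), so that the 3 oxidative genes did not move one way. Rpe, at 1.07-fold (0.991 to 1.15), had an interval that included 1. It turned to a log2 ratio of −0.02 after centring on the median of all genes at 50 CPM or more. Here "higher by size" or "lower by size" means a ratio of 1.5-fold or more with an interval that left out 1, counted over the genes whose mean reached 10 CPM. By this rule 0 of the 6 members above that mean were called, where 13.3% of 6699 genes were higher and 6.28% lower. The median log2 ratio was 0.24 over the 7 enzymes and 0.14 over all genes compared. Summed over the 7, the pathway held 813 CPM in day 4 cells (interval 808 to 819) and 977 CPM in day 6 cells (970 to 983), with 66.3 and 62.6 oxidative UMIs per 100 non-oxidative ones. Both sums were higher on day 6, the oxidative at 324 and 376 CPM and the non-oxidative at 489 and 601 CPM.

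Cells were then grouped by raw UMIs of 7 marker genes, each cell in a group only if it passed the limit of 1 marker and no other (5 UMIs for Dppa5a and Col4a1, 2 UMIs for the rest). Dppa5a marks pluripotent cells, Fgf5 primed epiblast, Six6 the optic vesicle, Fezf2 the anterior forebrain, Wnt8b the dorsal forebrain, Sox10 neural crest and Col4a1 cells that lay down basement membrane. On day 4 this gave 1329 Dppa5a, 2911 Fgf5 and 71 Fezf2 cells, and on day 6 485 Dppa5a, 1877 Six6, 600 Fezf2, 239 Wnt8b and 67 Col4a1 cells. Groups under 50 cells were not compared, which left out Six6 (19 cells) and Col4a1 (7 cells) on day 4 and Fgf5 (26 cells) and Sox10 (25 cells) on day 6. More than 1 limit was passed by 886 cells of day 4 and 407 of day 6. No marker limit was passed by 2924 and 2915 cells. The other markers of each group did not all keep to its name. In Six6 cells the other 7 optic vesicle markers summed to 895 CPM, against 10.2 to 476 CPM for the full list in the other 7 groups. Only 4 of the 7 were at 10 CPM or more, while Vax2 had 6.88, Hmx1 0.19 and Vax1 0.08 CPM. Dppa5a cells of day 4 held 1051 CPM of the other 8 pluripotency markers but also 1404 CPM of primed epiblast markers, so this group was not free of primed genes. Fezf2 cells were not set apart by the other 6 anterior forebrain markers: on day 6 these summed to 177 CPM, beside 476 CPM of optic vesicle markers, where the full list of 7 summed to 208 CPM in Six6 cells. On day 4 they summed to 433 CPM in Fezf2 cells, beside 1253 CPM of primed epiblast markers. In Wnt8b cells the other 5 dorsal forebrain markers summed to 208 CPM, against 2.75 to 74.2 CPM for the full list in the other 7 groups. These cells also held 256 CPM of optic vesicle and 202 CPM of primed epiblast markers. The group names below therefore stand for the marker gene counted.

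**Figure D1:**
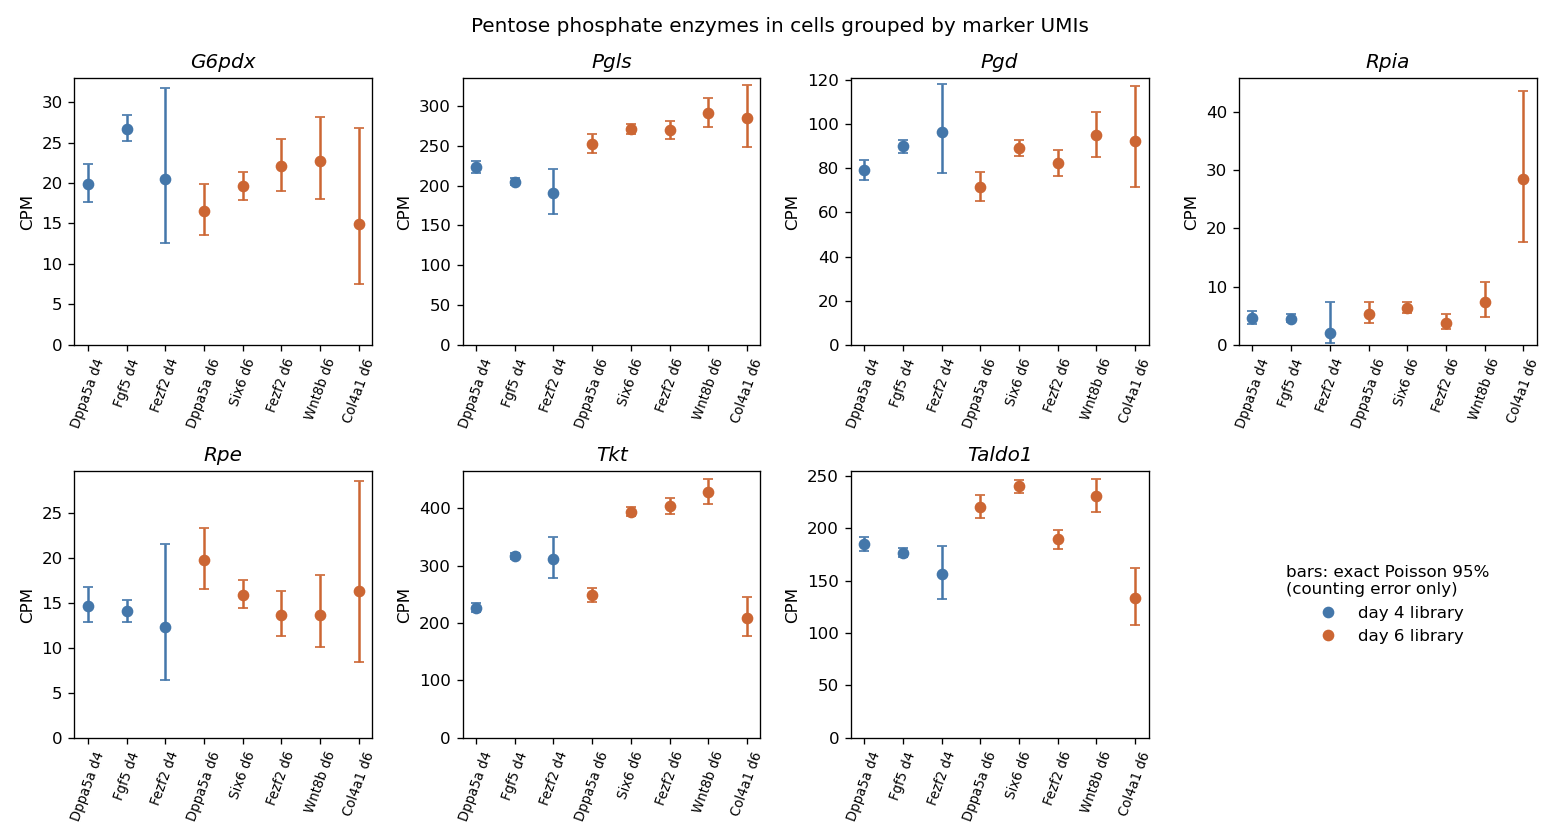
Level of each enzyme in CPM (vertical axes, linear, from 0) in the 8 groups of at least 50 cells (horizontal axes, d4 and d6 for the day), with day 4 in blue and day 6 in orange and bars for exact Poisson 95% intervals. Rpia stands at 28.5 CPM in Col4a1 cells and between 2.05 and 7.37 CPM in the other 7 groups, while Tkt is lowest in Col4a1 and Dppa5a cells.

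Over the 8 groups, Rpia varied most and Pgd least. The highest group had 13.9 times the Rpia level of the lowest, a ratio that rests on 2 UMIs in Fezf2 cells of day 4 and has an interval of 3.40 to 122. Against the second lowest group, at 3.81 CPM, it was 7.49 times (4.12 to 13.3). The highest over the lowest group was 2.05 times for Tkt, 1.80 for Taldo1, 1.79 for G6pdx, 1.60 for Rpe, 1.53 for Pgls and 1.35 for Pgd. Tkt and Pgls each had 3 steps between neighbouring groups whose intervals left out 1. Tkt ran from 428 CPM in Wnt8b cells through 403 in Fezf2 and 394 in Six6 cells of day 6 to 317 in Fgf5 and 312 in Fezf2 cells of day 4, and then to 248 and 227 CPM in Dppa5a cells of day 6 and day 4 and 209 in Col4a1 cells. The neighbours Wnt8b and Fezf2, Fezf2 and Six6 of day 6, the pair from day 4, and the last pair in that order had ratios whose intervals included 1. Pgls separated the days, with all 5 groups of day 6 between 252 and 292 CPM and the 3 of day 4 between 191 and 224 CPM. Taldo1 was highest in Six6 cells (240 CPM) and lowest in Col4a1 cells (133 CPM). For G6pdx, Pgd and Rpe, no neighbours in the order differed beyond counting error, with ranges of 14.9 to 26.7, 71.5 to 96.5 and 12.3 to 19.7 CPM.

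Six6 cells of day 6 were also set against Fgf5 cells of day 4, a contrast in which cell group and library cannot be told apart. No lineage was traced between these cells. Taldo1 was at 177 and 240 CPM, 1.36-fold (1.31 to 1.40). Pgls was 1.32-fold (1.28 to 1.37) and Tkt 1.24-fold (1.21 to 1.28). Rpia, from 4.49 to 6.37 CPM, was 1.42-fold (1.14 to 1.77). G6pdx was at 26.7 and 19.6 CPM, a ratio of 0.733 (0.657 to 0.816). Pgd, at 0.990 (0.939 to 1.04), and Rpe, at 1.13 (0.994 to 1.29), had intervals that included 1. No member was called by size (0 of 6), where 16.9% of genes were higher and 8.08% lower. The enzymes had a median log2 ratio of 0.31 against 0.14 over all genes compared.

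**Figure D2:**
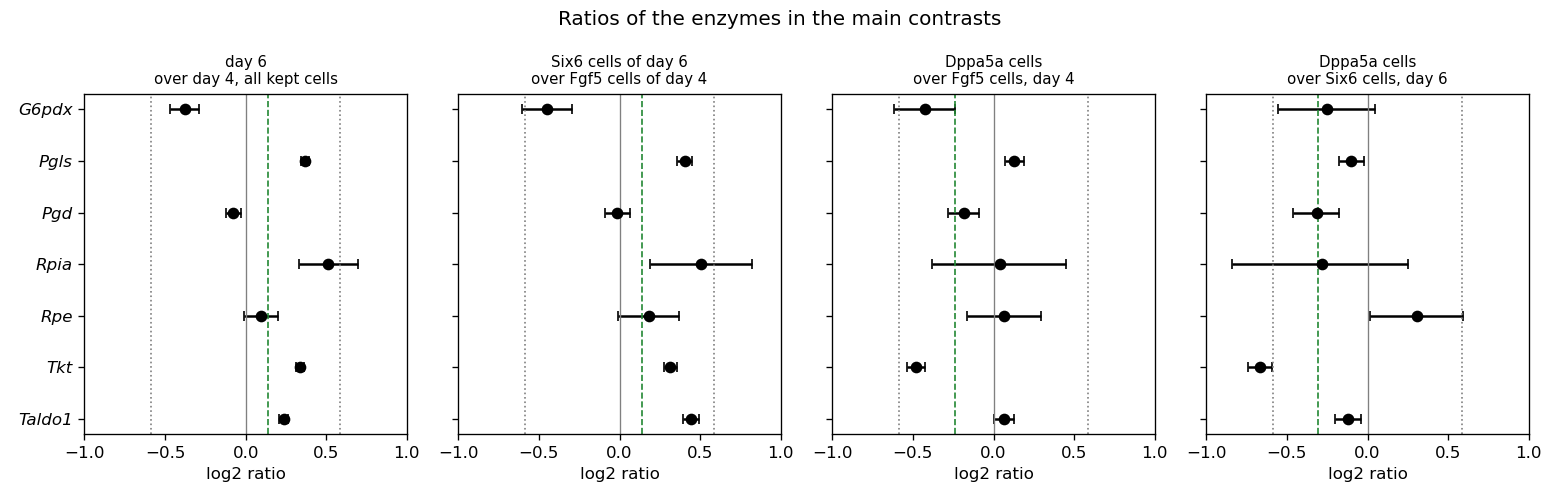
Log2 ratios of the 7 enzymes (horizontal axes) in 4 contrasts, with exact 95% intervals for counting error as bars, dotted lines at 1.5-fold either way and a green dashed line at the median of all genes compared. The log2 ratios of G6pdx and Pgd are below 0 in all 4 contrasts. The interval includes 0 for G6pdx in Dppa5a over Six6 cells and for Pgd in Six6 over Fgf5 cells. After centring on genes at 50 CPM or more, G6pdx turns to 0.11 in Dppa5a over Six6 cells, and Pgd turns above 0 in both Dppa5a contrasts. Tkt in Dppa5a over Six6 cells, at 0.630 of the Six6 level, is the only member beyond a dotted line.

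Dppa5a cells were next compared inside each library, with Fgf5 cells on day 4 and with Six6 cells on day 6. On day 4, Tkt was at 227 CPM in Dppa5a cells and 317 CPM in Fgf5 cells, a ratio of 0.716 (0.689 to 0.744). G6pdx was at 0.745 (0.652 to 0.848) and Pgd at 0.880 (0.824 to 0.941). Pgd turned to a log2 ratio of 0.08 after centring on the median of all genes at 50 CPM or more. Pgls, at 1.09-fold (1.05 to 1.14), and Taldo1, at 1.05-fold (1.0003 to 1.09), were slightly higher in Dppa5a cells. No member was called by size (0 of 6), against 8.17% of genes higher and 17.9% lower, and the medians were 0.04 over the enzymes and −0.24 over all genes. Oxidative UMIs numbered 74.9 per 100 non-oxidative ones (72.1 to 77.7) in Dppa5a cells and 62.8 (61.4 to 64.2) in Fgf5 cells. The oxidative sum itself was alike, at 323 and 321 CPM, while the non-oxidative sum was 431 and 512 CPM. Pgls alone made up 224 and 205 CPM of the oxidative sums, and both dehydrogenases were lower in Dppa5a cells. Median ribosomal protein shares were 41.2% and 35.8% of UMIs in these groups, and their part in the ratios enters through the totals: with mitochondrial and ribosomal protein genes left out of the totals the log2 ratio of Tkt was −0.36 and that of Pgls 0.25.

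On day 6 the contrast with Six6 cells was wider for the same enzyme. Tkt was at 248 CPM in Dppa5a cells and 394 CPM in Six6 cells, a ratio of 0.630 (0.598 to 0.663), lower by size. It was 1 of 6 members called, all lower, where 32.3% of genes were lower and 13.2% higher. The call was lost with totals free of mitochondrial and ribosomal protein genes (0.723) and after centring on the median of all genes at 50 CPM or more (0.807). Pgd was at 0.803 (0.727 to 0.886) and G6pdx at 0.841 (0.680 to 1.03), and both turned to the other side after this centring (log2 0.04 and 0.11). For Pgd the turn depends on the median used, since its log2 ratio of −0.32 was below the −0.31 of all genes compared. Pgls, at 0.933, and Taldo1, at 0.919, were below 1 on the full totals but turned to the other side with the reduced totals and after centring. Rpe, at 19.7 against 15.9 CPM, was 1.24-fold (1.01 to 1.51), and it passed 1.5-fold after centring (log2 0.67) and in cells thinned to 5000 UMIs (log2 0.63). Within Dppa5a cells, day 6 over day 4, Rpe was 1.34-fold (1.07 to 1.67), Taldo1 1.19-fold (1.12 to 1.27), Pgls 1.13-fold (1.06 to 1.20) and Tkt 1.09-fold (1.03 to 1.16). None of the 6 members compared was called there (0 higher and 0 lower), where 6.09% of genes were higher and 2.55% lower.

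Inside the neural cells of day 6 the enzymes differed little. In Fezf2 cells Taldo1 stood at 189 CPM, 0.789 of the Six6 level (0.747 to 0.834). Rpia was at 3.81 CPM there against 6.37 CPM, a ratio of 0.598 (0.398 to 0.873) from 33 UMIs, under the 10 CPM needed for a call. The intervals of the other 5 enzymes included 1, with Tkt at 1.02-fold (0.985 to 1.06). In Wnt8b cells Tkt was 1.09-fold (1.03 to 1.15) and Pgls 1.08-fold (1.01 to 1.15) of the Six6 level, and the other 5 had intervals that included 1. Calls by size numbered 0 of 6 members in both contrasts, where 1.93% and 2.43% of genes were lower and 2.44% and 3.07% higher. The Wnt8b cells had 1.22 times the Taldo1 (1.12 to 1.33) and 1.93 times the Rpia (1.11 to 3.33) of Fezf2 cells, with 0 of 6 members called where 2.37% of genes were higher and 2.18% lower. From day 4 to day 6, Fezf2 cells had 1.41 times the Pgls (1.22 to 1.65) and 1.29 times the Tkt (1.15 to 1.46), again with 0 of 6 called where 10.8% of genes were higher and 5.98% lower.

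Sox10 cells were described with looser limits (3 UMIs for Dppa5a and Col4a1, 1 UMI for the rest), an alternative added after the data were seen, which gave 60 Sox10 and 2135 Six6 cells on day 6. Taldo1 was at 143 CPM in Sox10 cells and 236 CPM in Six6 cells, a ratio of 0.604 (0.506 to 0.717), lower by size. At the first limits, Taldo1 was at 164 CPM (128 to 207, 72 UMIs) in the 25 Sox10 cells and 240 CPM in Six6 cells. The other 6 neural crest markers summed to 586 CPM in those 25 cells and were not checked in the 60 cells. Rpe was higher by size at 24.3 against 14.7 CPM, 1.65-fold (1.04 to 2.51), from 23 UMIs. Pgls was 1.25-fold (1.11 to 1.39) and Tkt 1.16-fold (1.05 to 1.28). Among all genes, 7.01% were higher and 9.14% lower in this contrast.

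Col4a1 cells differed most from the neural cells, and Rpia was the enzyme that differed most. In the 67 Col4a1 cells of day 6 the other 9 endoderm markers, among them the transcription factors Sox17, Gata4 and Gata6, were all above 10 CPM and summed to 19272 CPM, against 92.4 to 213 CPM for the 10 markers of the list in the other 7 groups. Rpia stood at 28.5 CPM (21 UMIs) in these cells and at 6.37 CPM (164 UMIs) in Six6 cells, 4.48-fold higher (2.70 to 7.07). Tkt was at 209 CPM, 0.531 of the Six6 level (0.450 to 0.623), and Taldo1 at 133 CPM, 0.555 (0.450 to 0.677). Of the 6 enzymes at 10 CPM or more in Six6 cells too, Tkt and Taldo1 were lower by size (2) and 0 higher, in a contrast where 30.2% of genes were higher and 22.2% lower. Rpia is left out of that count, since it reached a mean of 10 CPM only through the Col4a1 cells. Pgls (1.05), Pgd (1.04), Rpe (1.03) and G6pdx (0.763) had ratios whose intervals included 1. Oxidative UMIs were 101 per 100 non-oxidative ones (85.8 to 120) in Col4a1 cells and 57.8 (56.4 to 59.3) in Six6 cells, the widest gap of this measure among the 8 groups. The oxidative sums were 393 and 379 CPM in these groups and the non-oxidative sums 387 and 656 CPM, so the gap lay mostly in the non-oxidative genes. Median depth was 9674 UMIs and the median mitochondrial share 4.81% in Col4a1 cells, against 12832 UMIs and 2.39% in Six6 cells, and in cells thinned to 5000 UMIs the log2 ratio was 2.20 for Rpia, −1.08 for Tkt and −1.05 for Taldo1. With cells allowed to pass several limits there were 160 Col4a1 cells, and Rpia was 4.17-fold (2.997 to 5.71) from 53 UMIs, Tkt at 0.552 and Taldo1 at 0.572 of the Six6 level. G6pdx was then also lower by size, at 0.563 (0.349 to 0.861), with 29.0% of genes higher and 24.6% lower.

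In both libraries Rpia was low in cells with up to 4 Col4a1 UMIs and higher in those with 10 or more. The bins of 5 to 9 UMIs held too few counts to place the step. On day 6 Rpia was at 6.25 CPM in cells with 0 Col4a1 UMIs, 5.13 CPM at 1 UMI and 4.83 CPM at 2 to 4 UMIs. In the 12 cells with 5 to 9 it was at 23.0 CPM (3 UMIs), with an interval of 4.74 to 67.2 that took in these lower levels. It was at 17.6 CPM (7.58 to 34.6, 8 UMIs) in the 41 cells with 10 to 19 and at 29.8 CPM (21.5 to 40.3, 42 UMIs) in the 107 cells with 20 or more. No single cell made this value, since 36 of the 107 cells held Rpia and none more than 2 of its UMIs, while 405 of the 5219 cells with 0 Col4a1 UMIs held any. After thinning to 5000 UMIs, 9 of 67 Col4a1 cells (13.4%, 6.33 to 24.0) and 54 of 1877 Six6 cells (2.88%, 2.17 to 3.74) held Rpia, against 28.4% and 8.47% before thinning. Free RNA was not removed, and its part in these shares was not tested. On day 4 the levels were 4.38, 4.36 and 4.59 CPM in the lower bins. The 4, 11 and 23 cells of the upper bins held 2, 4 and 11 Rpia UMIs, or 47.9, 28.3 and 32.7 CPM, with intervals as wide as 5.80 to 173. Tkt moved the other way, from 376 CPM at 0 to 225 CPM at 20 or more Col4a1 UMIs on day 6 and from 294 to 155 CPM on day 4. Cells with 20 or more Col4a1 UMIs also held a median of 30 Dppa5a UMIs on day 4 and 8 on day 6, and whether these lay in the same cells by expression or by shared droplets was not tested.

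**Figure D3:**
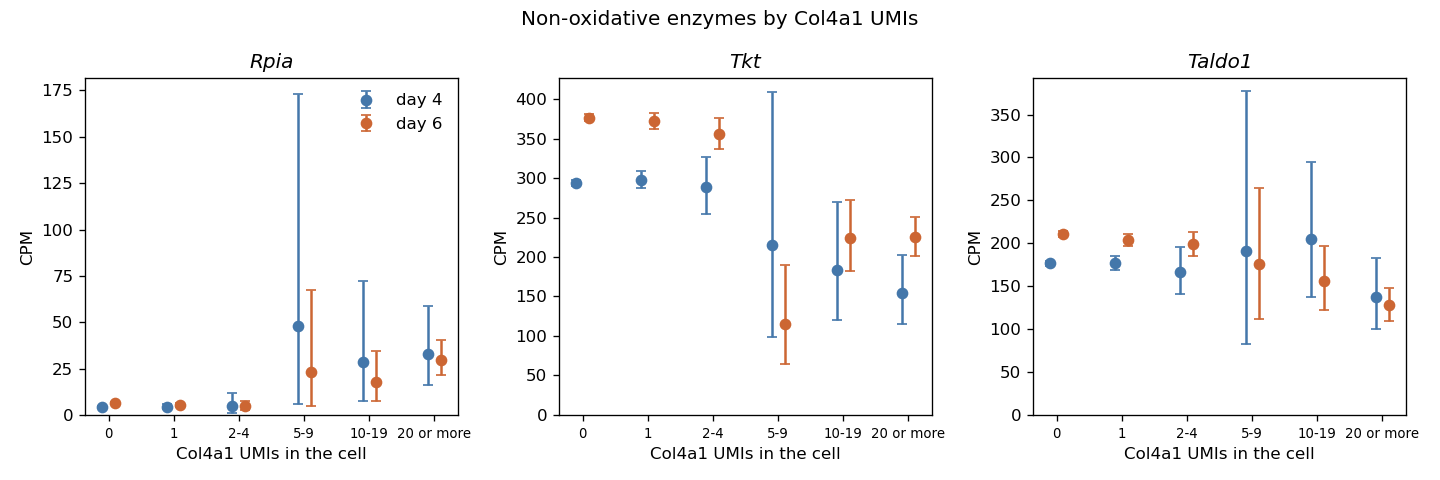
Levels of Rpia, Tkt and Taldo1 in CPM (vertical axes, linear, from 0) in all kept cells binned by their Col4a1 UMIs (horizontal axes), for day 4 (blue) and day 6 (orange), with exact Poisson 95% intervals as bars. Rpia lies between 4.36 and 6.25 CPM up to 4 Col4a1 UMIs and between 17.6 and 47.9 CPM above, with wide bars in the upper bins of day 4 that hold 4 to 23 cells. The day 6 bin of 5 to 9 UMIs also has a wide bar, from 4.74 to 67.2 CPM, which takes in the levels of the lower bins.

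Since ribose 5-phosphate feeds nucleotide synthesis, the enzymes were also compared between cells with many and few UMIs of 30 S phase genes. Cells were first thinned to 5000 UMIs, which left out the 182 kept cells of day 4 that had fewer. The 25% of cells with most and the 25% with fewest were then taken in each library (1991 cells each on day 4, 1660 on day 6). Tkt was higher by size in S phase-high cells on both days, at 342 against 217 CPM on day 4 (1.57-fold, 1.49 to 1.66) and 431 against 269 CPM on day 6 (1.60-fold, 1.52 to 1.69). Pgd was 1.69-fold (1.53 to 1.87) on day 4 and 1.48-fold (1.32 to 1.66) on day 6. G6pdx was 1.48-fold (1.23 to 1.80) and 1.85-fold (1.46 to 2.35), and Taldo1 1.26-fold (1.18 to 1.34) and 1.44-fold (1.35 to 1.55). Pgls did not go with them, at 0.904 (0.851 to 0.959) and 1.10 (1.04 to 1.17), nor did Rpia, at 1.04 (0.684 to 1.59) and 0.686 (0.465 to 1.004). Rpe differed between the days, at 1.34-fold (1.06 to 1.71) on day 4 and 0.903 (0.700 to 1.16) on day 6. Of 6 members tested, 2 were called higher on each day, Pgd and Tkt on day 4 and G6pdx and Tkt on day 6, where 8.52% and 7.56% of genes were higher and 6.8% and 8.58% lower. The median log2 ratio of the 7 was 0.43 and 0.53, against 0.15 and 0.04 over all genes.

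The S phase-low and S phase-high cells differed in makeup. Cells with 5 or more Dppa5a UMIs made up 42.8% of the low and 15.4% of the high set on day 4, and 25.5% and 1.57% on day 6. Cells under 0.5% mitochondrial counts made up 11.4% and 1.31%, and 9.40% and 0.783%. Within 1 marker group the differences were smaller for Tkt: it was 1.43-fold (1.31 to 1.56) within Fgf5 cells of day 4, where 0 of 6 members were called and 3.51% of genes were higher and 2.2% lower, and 1.28-fold (1.17 to 1.41) within Six6 cells of day 6. Taldo1 was 1.22-fold (1.09 to 1.37) and 1.33-fold (1.17 to 1.499), and Pgd 1.45-fold (1.23 to 1.71) and 1.27-fold (1.04 to 1.55). G6pdx was 1.21-fold (0.892 to 1.64) within Fgf5 cells and 2.10-fold (1.35 to 3.33) within Six6 cells, the 1 member of 6 called there, where 3.21% of genes were higher and 6.19% lower. Without cells under 0.5% mitochondrial counts, Tkt was 1.48-fold on day 4, no longer called, and 1.51-fold on day 6. There 1 of 6 members (Pgd) was called on day 4 and 2 (G6pdx and Tkt) on day 6, all higher, where 6.51% and 5.64% of genes were higher and 5.6% and 8.08% lower. Without cells that passed the Dppa5a or Col4a1 limit, Tkt was 1.48-fold and 1.43-fold and no longer called on either day. Pgd was then 1.63-fold on day 4 and, on day 6, G6pdx was 1.62-fold, Pgd 1.503-fold and Taldo1 1.51-fold, so that 1 and 3 of 6 members were called higher, where 3.53% and 3.93% of genes were higher and 3.92% and 5.06% lower. These values for parts of the cells were added after the first ones were seen.

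**Figure D4:**
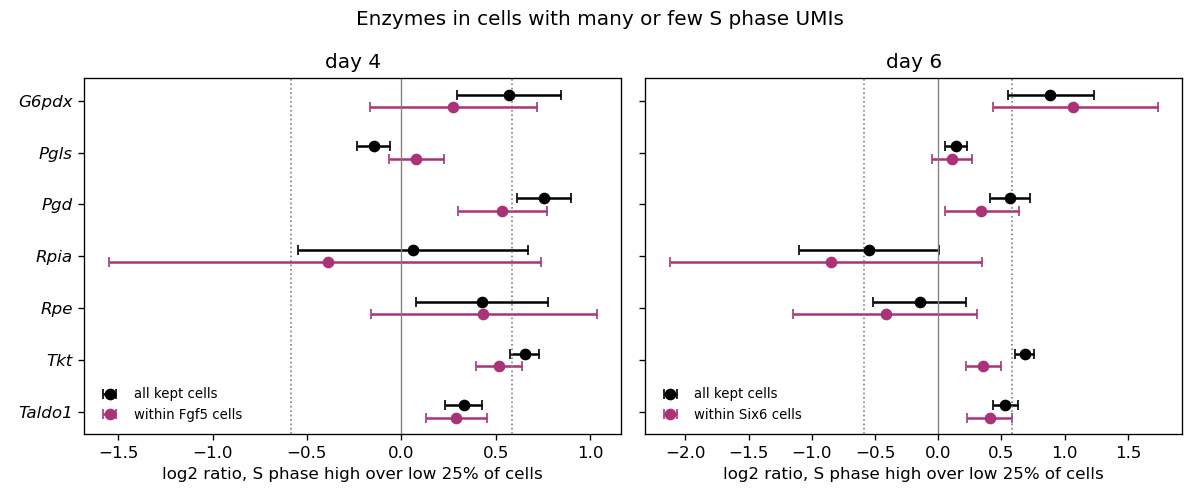
Log2 ratio of each enzyme in the 25% of cells with most over the 25% with fewest S phase UMIs (horizontal axes), for day 4 (left) and day 6 (right), in all kept cells (black) and within Fgf5 or Six6 cells (purple), with exact 95% intervals for counting error as bars and dotted lines at 1.5-fold. Tkt, Pgd and Taldo1 lie above 0 with intervals that leave out 0 in all 4 settings, Pgls near 0, and Rpia and Rpe have the widest bars.

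Genes of the reactions around the pathway are given next from set lists, to be read against the share of all genes called. A gene was measured when its mean over the 2 groups reached 10 CPM, so it could enter through the group where it was high. The share of all genes includes such genes too. In Six6 over Fgf5 cells, where 16.9% of all genes were higher and 8.08% lower, ribose phosphate use had 5 of 8 listed genes at 10 CPM or more, of which 2 were lower and 0 higher by size: Pgm2, which acts on pentose and hexose phosphates, was at 47.7 and 6.30 CPM, and Prps2, a phosphoribosyl pyrophosphate synthetase, at 96.9 and 43.3 CPM. Of 7 measured genes at the branch point with glycolysis, 3 were lower and 0 higher, with Hk2 (hexokinase) at 0.456 and Aldoa (aldolase) at 0.550 of the Fgf5 level. Pfkp (phosphofructokinase), at 0.289, was measured only through Fgf5 cells, at 15.6 CPM there and 4.51 CPM in Six6 cells. Of 11 genes of pyrimidine and deoxynucleotide synthesis, 3 were higher and 0 lower, led by Rrm2, the ribonucleotide reductase subunit, at 1.86-fold, and of 11 of purine synthesis 1 was higher, Gmps at 1.51-fold. Other NADPH sources were mixed, with 1 higher and 2 lower of 9: Idh2, the mitochondrial NADP isocitrate dehydrogenase, was 2.87-fold, and Me1, the cytosolic malic enzyme, 0.230 of the Fgf5 level. Of 14 genes of glutathione, thioredoxin and other NADPH use, 2 were higher and 3 lower, and Gclm, which makes the first step of glutathione synthesis efficient, was at 0.264. Of 7 measured genes of NRF2 and its usual targets, 1 was higher and 2 lower, with Nfe2l2, the gene of NRF2 itself, at 0.518. G6pdx, an NRF2 target in many tissues, was at 0.733 in this contrast and had an interval that left out 1.

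In Dppa5a over Six6 cells of day 6, where 13.2% of all genes were higher and 32.3% lower, 6 of 8 measured branch point genes were higher by size and 0 lower, with Aldoa 3.11-fold. Among those called, Pfkp and Hk1 were measured only through Dppa5a cells, at 83.9 and 22.0 CPM there against 4.51 and 5.75 CPM in Six6 cells. Of 8 measured NRF2 genes, 5 were higher and 0 lower, with Nfe2l2 2.99-fold, while G6pdx stood at 0.841 (0.680 to 1.03). Srxn1 (sulfiredoxin), also called higher, was measured only through Dppa5a cells, at 20.1 CPM there against 3.73 CPM in Six6 cells. Deoxynucleotide and pyrimidine synthesis had 7 of 10 genes lower and 0 higher, with Tk1 (thymidine kinase) at 0.352 and Rrm1 at 0.354, beside Tkt at 0.630. Gpx4, a glutathione peroxidase that uses NADPH through glutathione, was at 5707 against 555 CPM. On day 4, Dppa5a over Fgf5 cells, where 8.17% of all genes were higher and 17.9% lower, gave 4 of 8 branch point genes higher, 3 of 11 deoxynucleotide and pyrimidine genes lower and Gpx4 12.8-fold. In Col4a1 over Six6 cells, where 30.2% of all genes were higher and 22.2% lower, 6 of 7 measured NRF2 genes were higher, 8 of 10 deoxynucleotide and pyrimidine genes and 25 of 30 S phase genes lower, and no S phase gene of the 30 was higher (0). Genes measured only through the group where they were high were not set apart in these counts.

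Over all cells, day 6 over day 4, where 13.3% of all genes were higher and 6.28% lower, branch point genes were lower in 2 of 7, Pfkp at 0.464 and Hk2 at 0.545. Ribose phosphate use was lower in 2 of 5, Pgm2 at 0.272 and Prps2 at 0.540. No purine gene of 11 was called (0 higher and 0 lower), and Rrm2 (1.60-fold) and Tk1 (1.503-fold) were the 2 higher of 11 deoxynucleotide and pyrimidine genes, with Ctps2, a cytidine triphosphate synthase, at 0.639. Gclm was at 0.322, the 1 lower of 14 NADPH users. Each of these lists was chosen with results of these data known.

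For each enzyme the 2 genes with the most similar pattern were sought by Pearson r of log2 CPM over the 8 groups, among the 2389 genes that averaged 50 CPM or above, which leaves G6pdx, Rpia and Rpe out as candidates. For Tkt they were Prkra (r = 0.998) and Hdac2 (r = 0.994), the latter a histone deacetylase. For Rpia they were Ctsb, the lysosomal protease cathepsin B (r = 0.967), and Atp5d, a subunit of ATP synthase (r = 0.967). Pearson r takes no account of the size of a range: Atp5d ran from 332 to 621 CPM, and Rpia from 2.05 CPM, on 2 UMIs, to 28.5 CPM. Those of Taldo1 were Cenpm (r = 0.942) and Naa35 (0.938), of G6pdx Nol7 (0.957) and Tma16 (0.950), of Pgls Nans (0.972) and Sap18 (0.958), of Pgd Tma7 (0.948) and Eif5b (0.947), and of Rpe Cdc5l (0.934) and Syf2 (0.919). Between enzymes r ran from −0.68 for Pgd with Rpe to 0.69 for Pgls with Rpia, with 0.59 for Tkt with Taldo1 and 0.64 for G6pdx with Tkt. The genes named are the closest 2 of 2389 on 8 points, a search that favours high r for any pattern. The 8 points come from 2 libraries and differ in depth and number of cells, so these values are a description.

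Promoter sequences are shown for Rpia, which varied most over the groups, and for Pgd, Tkt, Taldo1 and G6pdx, which were higher in S phase-high cells, from RefSeq on GRCm38.p6. For the first 4 they are limited to bases before the start that no annotated exon of the gene covers, while the 29 bases of G6pdx lie inside an annotated exon of the gene. Capitals mark a CCAAT box (CCAAT on either strand) or, for G6pdx, the antioxidant response element core TGACNNNGC on either strand, the letters through which NRF2 is known to act. The Rpia stretch is chr6:70792233-70792425 on the minus strand, that of Pgd chr4:149166772-149166955 on the minus strand, that of Tkt chr14:30548881-30549001 on the plus strand, inside the GENCODE span of the gene and intronic there, and that of Taldo1 chr7:141391910-141392159 on the plus strand. The window of G6pdx is chrX:74428919-74428947 on the minus strand.
Rpia: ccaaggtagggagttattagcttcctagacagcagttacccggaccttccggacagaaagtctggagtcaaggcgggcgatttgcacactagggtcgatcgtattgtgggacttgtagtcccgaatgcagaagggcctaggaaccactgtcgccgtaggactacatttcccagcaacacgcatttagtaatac
Pgd: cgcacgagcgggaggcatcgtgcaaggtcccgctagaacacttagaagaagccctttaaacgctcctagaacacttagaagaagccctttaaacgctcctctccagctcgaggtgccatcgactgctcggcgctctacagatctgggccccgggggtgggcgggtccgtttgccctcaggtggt
Tkt: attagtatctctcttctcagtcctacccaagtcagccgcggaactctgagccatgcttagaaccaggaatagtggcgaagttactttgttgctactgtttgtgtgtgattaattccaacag
Taldo1: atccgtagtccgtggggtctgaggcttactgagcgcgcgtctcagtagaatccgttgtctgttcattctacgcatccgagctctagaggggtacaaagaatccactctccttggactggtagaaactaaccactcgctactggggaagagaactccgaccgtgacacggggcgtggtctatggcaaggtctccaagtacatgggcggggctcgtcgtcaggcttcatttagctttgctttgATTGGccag
G6pdx: aggcgggtcaGCTCAGTCAaagcacacgc
All 7 enzymes had a RefSeq promoter, 2 of them for Pgd, and the 250 bases before each start were searched on both strands. CCAAT was found in 2 of 7, Taldo1 (9 bases before the start) and the first promoter of Pgd (46 and 9 bases, both nearer the start than the stretch shown), and in 33.85% of 32851 promoters. The antioxidant core was found in 1 of 7, G6pdx, 57 bases before the start, and in 10.16% of promoters. The E-box CACGTG (6.021% of promoters), TGATAA (7.942%), a form of the GATA site, and the E2F site TTTGGCGC (0.417%) were in 0 of 7. The Rpia window held none of the 5 motifs searched. TGATAA was looked for because Gata4 and Gata6 marked the Col4a1 cells, and other forms of the GATA site were not searched. Most promoters lack TGATAA, so its absence decides nothing, and a part of GATA factors in the Rpia level was not tested.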

How the data were processed

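Per the labels, the libraries were made with the 10x Genomics single cell 3′ v2 kit and aligned to mm10; Cell Ranger 2.0.1 and Seurat 2.3.4 are credited to the submitters' processing notes. The study's methods name later versions of both, and state more cells after filtering than these files have barcodes, so its own matrices were others. In the deposited matrices each value is a raw UMI count, which the authors left without normalization, for 9114 (day 4) and 7446 (day 6) barcodes. Cells were kept by the limits of the study's filter, applied here to the deposited barcodes: 500 to 5000 genes, 500 to 26000 UMIs, at most 10% mitochondrial, at least 20% ribosomal protein and at most 0.5% haemoglobin counts. No doublet caller was run and free RNA was not removed; cells over 20000 UMIs were left out as an alternative. Summed UMIs of a group were scaled to its own total (CPM). Intervals are exact, at 95%, and their functions were tested on simulated counts. Genes named were the 7 enzymes, 4 paralogs, up to 4 genes per list with the largest ratios in each main contrast and 2 genes of like pattern per enzyme. The enzymes, marker genes and lists were chosen with earlier results of these data known. Analyses used python 3.11.15, numpy 2.4.6, scipy 1.17.1 and pandas 2.3.3.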

Additional observations from a re-analysis of the deposited data

How the results depend on the processing

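Across 315 member values under the alternatives for the 4 main contrasts, 23 changed sign, and the 1 called value (Tkt in Dppa5a over Six6 cells) did not. Its call, however, was lost with reduced totals and after centring. Calls changed in 5 values, all in Dppa5a over Six6 cells. Among the sign changes, 1 in Dppa5a over Fgf5 cells and 5 in Dppa5a over Six6 cells were of values whose interval had left out 1. The median log2 ratio of the enzymes, day 6 over day 4, was 0.24 and moved to 0.28 without the cell filter, 0.16 with totals free of mitochondrial and ribosomal protein genes, 0.13 after centring on all genes, 0.20 in thinned cells and 0.28 without cells holding Dppa5a, Sox10 or Col4a1. For Six6 over Fgf5 cells it moved from 0.31 to 0.37 with overlapping groups. For Dppa5a over Fgf5 cells it moved from 0.04 to 0.17 with those totals and 0.31 after centring, and for Dppa5a over Six6 cells from −0.25 to 0.11 after centring, where its sign turned. The S phase median of day 6 was 0.53 over all cells and 0.34 within Six6 cells. Where totals or centring were changed, the shift is that of the total by construction; the cause of the other shifts was not tested. The median of all genes at 50 CPM or more, used for centring, was 0.11, 0.13, −0.26 and −0.36 in the 4 contrasts. Leaving out cells over 20000 UMIs put Rpia at 0.606 in Dppa5a over Six6 cells. In Col4a1 over Six6 cells, Tkt and Taldo1 stayed lower by size under all 10 alternatives run, and the log2 ratio of Rpia lay between 1.90 and 2.37. No paired analysis was possible because each day is 1 pooled library and no test was made. Depth limits Rpia most, with 2 UMIs in Fezf2 cells of day 4 and 21 in Col4a1 cells.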
